A study of Homo sapiens with 6 samples.

Results

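The genes of the P-TEFb, HEXIM and 7SK complex were examined in U251, an established human glioma cell line, with and without sevoflurane (Sev), an inhaled anesthetic. The members were HEXIM1, HEXIM2, LARP7, MEPCE, CDK9, CCNT1, CCNT2, BRD2 and RN7SK, chosen by name. All 9 were found through their Ensembl identifiers among the 61496 features of the deposited tables. All 9 also passed the expression filter that left 27514 features for testing. Of these genes 8 code for protein, and RN7SK gives the 7SK RNA.

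The control group held 3 libraries of untreated cells, and the Sev group held 3 libraries of cells kept under Sev gas for 2 h. The labels list Sev concentrations of 1.7%, 3.4% and 5.1% and assign none to a single library. A figure caption of the study gives the highest of them for this comparison of Sev-treated U251 cells with the control. All libraries came from the same cell line, and the labels describe no genetic change, transgene or other agent in either group. Nothing in the labels says that the libraries of a group came from separate cultures, so the p-values measure only the spread between these libraries, which may be technical. Total RNA was depleted of ribosomal RNA and ligated to strand-specific adapters, so that RNAs without a poly(A) tail such as 7SK could be counted.

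P-TEFb is the kinase CDK9 bound to a cyclin T, made from CCNT1 or CCNT2. It phosphorylates the tail of RNA polymerase II and the factors that hold the enzyme paused near the start of a gene, and so lets it go on into the gene. Much of the P-TEFb of a cell is stored in an inactive particle built on 7SK RNA. In that particle a HEXIM protein inhibits the kinase, MEPCE caps the 5′ end of the RNA and LARP7 holds its 3′ end. BRD2 is a bromodomain protein of the BET family that binds acetylated histones. HEXIM1 was first found as a transcript induced by hexamethylene bisacetamide.

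The 5′ end of 7SK is shown because HEXIM binds there and because near-identical copies of this RNA could share its reads. GATC, a repeated motif of the HEXIM-binding region, is in capitals. It was searched as these letters, which read the same on both strands. The first line is the start of RN7SK (chr6:52995621-52995720, plus strand). The second is the start of RN7SKP203, the annotated copy with the most counts (chr2:76445311-76445410, minus strand). Both are 100 bases from GENCODE 29 on GRCh38.
7SK 5′ end: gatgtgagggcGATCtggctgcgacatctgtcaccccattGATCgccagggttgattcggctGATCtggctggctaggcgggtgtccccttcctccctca
RN7SKP203 5′ end: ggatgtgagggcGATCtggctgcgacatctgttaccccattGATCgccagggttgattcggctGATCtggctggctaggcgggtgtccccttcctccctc
In 7SK, 328 bases long, GATC began at bases 12, 41 and 63 and was found 3 times in all. Of the 203677 annotated transcripts of at least 100 bases, 22.4% held at least 1 GATC in their first 100 bases, and 0.286% held at least 3. The copy starts 1 base earlier. Over the 99 bases that the windows share, 1 base differed, and over the whole aligned stretch of 240 bases 4 differed.

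The libraries held 38624292 to 46318311 counts. The labelled cell type was checked against 8 glial and mesenchymal glioma markers. Their summed level was 7531 to 8448 CPM in the control and 8571 to 9037 CPM after Sev. CPM are counts scaled to the size of the library multiplied by its TMM factor, edgeR's scaling between libraries. VIM, NES, CD44 and GFAP were well expressed and AQP4 was near 0. Of the 7 that could be tested, 1 was higher (CD44) and 3 were lower (S100B, SOX2 and OLIG2) by edgeR's adjusted p. Sums of 4 markers each were far under that of the glioma markers for neurons (16.2 to 18.2 and 22.6 to 24.9 CPM), immune cells (3.53 to 6.03 and 8.56 to 10.6 CPM), endothelium (38.5 to 41.4 and 49.2 to 64.1 CPM) and epithelium (0.124 to 0.307 and 0.202 to 0.532 CPM), control before Sev, with STMN2 and CD3E at 0 in every library. Markers of other cell types that were higher after Sev by the same test were CD14 (3.71-fold), PECAM1 (1.89-fold), SYT1 (1.46-fold) and KDR (1.44-fold), and none was lower. The part of other cells in the results below was not tested. Across the tested features, the first principal component took 69% of the variance, and the scaling set the balance of directions. With TMM factors 50.7% of the changed features were higher after Sev. With library size only, which moved the median of all features to -0.15 on the log2 scale, 38.3% were higher, and with limma on log2 FPKM values it was 35.4% to 40.0%.

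HEXIM2 fell and BRD2 rose after Sev, and the other 7 genes of the complex did not pass the test. HEXIM2 fell to 0.578 of its control level, and BRD2 rose 1.29-fold. In RNA of whole cultures, a change in all cells and a change in the share of cells that make an RNA cannot be told apart. By edgeR's quasi-likelihood test, adjusted over all features by Benjamini-Hochberg, 2 of the 9 genes had an adjusted p under 0.05, which is 22.2% of them. Among all tested features 43.7% did so, and among the protein-coding genes 45.9%. In each direction there was 1 of the 9, against 22.1% of all features higher and 21.5% lower. None of the 9 passed the second threshold, a log2 fold change beyond 1 with an unadjusted p under 0.05, which 23.5% of all features did. Without adjustment 3 of the 9 had a p under 0.05 in edgeR, HEXIM2, BRD2 and RN7SK. The share of all features under this limit was not counted, but it is no smaller than the 43.7% that passed after adjustment. The control and Sev libraries did not overlap in CPM for 2 of the 9 genes, HEXIM2 and BRD2, against 56.5% of all features. The median log2 fold change of the 9 genes was 0.035. It was -0.0056 over all features and 0.038 over the protein-coding genes. The median of the 9 was -0.10 with library size only.

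**Figure D1:**
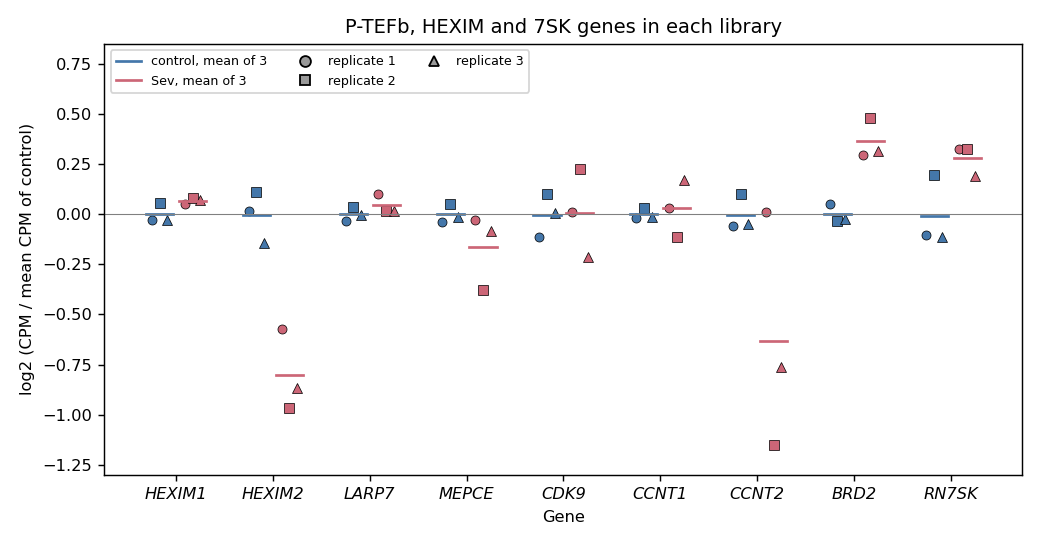
Level of each of the 9 genes in each library, as the log2 of its CPM over the mean CPM of the control libraries. Blue marks control and red marks Sev libraries, shapes mark the replicate number and bars the mean of 3. Sev libraries lie apart from the control for HEXIM2 (below) and BRD2 (above), and those of CCNT2 spread over more than a log2 unit.

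Of the inhibitors, HEXIM2 fell and HEXIM1 did not pass the test. They are neighbouring genes on chromosome 17 (GRCh38), both on the plus strand. HEXIM1 (ENSG00000186834), at chr17:45148502-45152101, is a single exon of 3600 bases. HEXIM2 (ENSG00000168517), at chr17:45160700-45170040, has 2038 exonic bases and starts 8598 bases after the end of HEXIM1.

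HEXIM1 was counted 8109, 8051 and 9305 times in the control libraries and 7644, 7765 and 8138 times in the Sev libraries. Its level was 196 ± 6.65 CPM in the control and 205 ± 1.90 CPM after Sev (SD, n = 3). Control replicate 2 lay between the lowest and middle Sev libraries, so the groups overlapped. This gave a log2 fold change of 0.068 with a standard error (SE) of 0.068 and a 95% interval of -0.090 to 0.23 (adjusted p = 0.449, edgeR). This interval excludes a change of HEXIM1 by as much as HEXIM2 fell. The sign of the HEXIM1 value depended on the scaling and was negative, -0.073, with library size only.

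HEXIM2 was counted 154, 154 and 158 times in the control libraries and 91, 69 and 78 times in the Sev libraries. All Sev libraries were below all control libraries. The level went from 3.59 ± 0.319 to 2.07 ± 0.304 CPM (SD, n = 3). HEXIM2 had a log2 fold change of -0.79 (SE 0.18, 95% interval -1.22 to -0.37, adjusted p = 0.0105, edgeR). It was negative with an adjusted p under 0.05 in 15 of 15 alternative analyses, between -0.93 and -0.49. HEXIM2 was the gene with the fewest counts among the 9.

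Antisense transcripts run through both HEXIM genes. ENSG00000267288 (chr17:45168800-45171584, minus strand) shares 1026 of the 2038 exonic bases of HEXIM2. It was counted 282, 236 and 318 times in the control and 107, 127 and 147 times after Sev, more than HEXIM2 itself in every library. It also fell, by 0.95 on the log2 scale (SE 0.16, adjusted p = 0.00270, edgeR). The library kit keeps the strand, but how the counting used it is not stated, so reads of HEXIM2 and of its antisense partner cannot be told apart in the shared bases. HEXIM2-AS1 (chr17:45150400-45161510, minus strand) covers 520 exonic bases of HEXIM1. It had 33, 16 and 30 counts in the control and 15, 3 and 7 after Sev, few beside those of HEXIM1 (log2 fold change -1.45, SE 0.54, adjusted p = 0.0607, edgeR). ENSG00000276728, a lincRNA that starts just upstream of HEXIM1 on the other strand, fell by 0.98 (SE 0.24, adjusted p = 0.0130, edgeR), from 287, 149 and 245 counts to 96, 89 and 119.

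**Figure D2:**
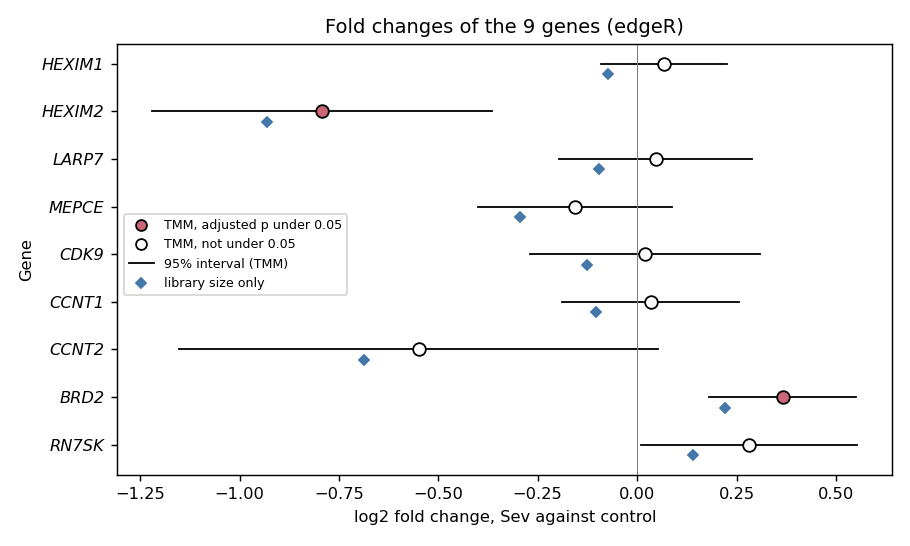
Log2 fold change of each gene, Sev against control, from edgeR with TMM factors (circles, with lines for the 95% interval) and with library size only (diamonds). Filled circles have an adjusted p under 0.05. HEXIM2 at -0.79 and BRD2 at 0.37 are filled, and with library size only every gene lies lower, with HEXIM1, LARP7, CDK9 and CCNT1 on the negative side.

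The kinase and its main cyclin gave no change that passed the test. CDK9 (ENSG00000136807, chr9:127785679-127790787, plus strand) was counted 1611, 1752 and 2007 times in the control and 1567, 1809 and 1410 times after Sev. The control range, 38.1 to 44.2 CPM, lay inside the Sev range of 35.6 to 48.2 CPM. Its log2 fold change was 0.020 (SE 0.13, 95% interval -0.27 to 0.31, adjusted p = 0.913, edgeR), and it was -0.13 with library size only. The sign also turned when single libraries were left out, with values from -0.091 to 0.12. The overlapping MIR3960 and MIR2861 had at most 1 count in a library. FPGS, which starts within 5000 bases after CDK9 on the same strand and codes for folylpolyglutamate synthase, rose by 0.45 (SE 0.16, adjusted p = 0.0481, edgeR).

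CCNT1 (ENSG00000129315, chr12:48688458-48716998, minus strand), which codes for the cyclin of most P-TEFb, had 1739, 1687 and 2001 counts in the control and 1605, 1445 and 1857 after Sev. The level was 41.6 ± 0.818 CPM and 42.7 ± 4.21 CPM (SD, n = 3), and Sev replicates 2 and 3 lay on either side of all control libraries. Its log2 fold change was 0.035 (SE 0.096, 95% interval -0.19 to 0.26, adjusted p = 0.795, edgeR), -0.10 with library size only and -0.037 to 0.11 with single libraries left out. No annotated gene overlaps CCNT1 or starts within 5000 bases of it.

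CCNT2 (ENSG00000082258, chr2:134918235-134959342, plus strand), the other cyclin T gene, had 1575, 1648 and 1822 counts in the control. The Sev libraries had 1473, 657 and 907 counts. Sev replicate 1 was at the control level, at 39.1 CPM against 37.2 to 41.6 CPM, while Sev replicates 2 and 3 were lower than every control library, at 17.5 and 22.9 CPM. The SD therefore went from 2.44 CPM in the control to 11.3 CPM after Sev. The log2 fold change was -0.55 (SE 0.26, 95% interval -1.15 to 0.054, adjusted p = 0.124, edgeR). The call rested on Sev replicate 1. Without it the log2 fold change was -0.94 with an adjusted p of 0.00593 in edgeR, and without Sev replicate 2 it was -0.32. CCNT2-AS1 shares 148 exonic bases with CCNT2 on the other strand. It had 71, 150 and 345 counts in the control and 91, 121 and 119 after Sev, and did not follow the low CCNT2 libraries.

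The RNA of the particle was the most abundant of the 9. RN7SK (ENSG00000283293, chr6:52995621-52995948, plus strand) was counted 226266, 260946 and 257541 times in the control and 271514, 270273 and 259864 times after Sev. This was 0.556% to 0.676% of all counts in the control and 0.647% to 0.685% after Sev. In CPM the control libraries stood at 5349, 6586 and 5305 and the Sev libraries at 7208, 7193 and 6559. Control replicate 2 was above Sev replicate 3, and the other 2 control libraries were below every Sev library. The log2 fold change was 0.28 (SE 0.12, 95% interval 0.010 to 0.55), with a p of 0.0437 before and 0.0864 after adjustment (edgeR), so it did not pass. Without control replicate 2 it was 0.38 with an adjusted p of 0.0190 in edgeR, and with library size only it was 0.14.

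RN7SK has many copies in the genome, and the deposited counts listed 300 of them, of which 191 had a count in at least 1 library. Of the 300, 9 were at least 95% identical to 7SK over at least 200 aligned bases, RN7SKP203 among them at 98.3%. Among the 9 is a second identifier for 7SK itself (ENSG00000202198), at the same place as RN7SK. It had no count in the control and 1, 5 and 1 after Sev. The copies together had 4511, 4247 and 4555 counts in the control and 5437, 5068 and 5334 after Sev, which is 1.60% to 2.01% of the sum of RN7SK and copies. RN7SKP203 alone had 2110, 2201 and 1868 counts in the control and 2806, 2718 and 2875 after Sev. Summing the copies into RN7SK left its log2 fold change at 0.28 (adjusted p = 0.0831, edgeR). GSTA4, a glutathione transferase gene that starts next to RN7SK on the other strand and shares no exonic base with it, fell by 0.50 (SE 0.17, adjusted p = 0.0440, edgeR).

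Neither gene for the proteins that stay bound to 7SK passed the test. LARP7 (ENSG00000174720, chr4:112636964-112657592, plus strand) had 547, 537 and 640 counts in the control and 535, 503 and 530 after Sev. Its level was 13.2 ± 0.313 CPM and 13.7 ± 0.474 CPM (SD, n = 3), and the groups overlapped. LARP7 had a log2 fold change of 0.047 (SE 0.11, 95% interval -0.20 to 0.29, adjusted p = 0.747, edgeR), or -0.095 with library size only. ZGRF1 shares 32 exonic bases with LARP7 on the other strand, and MIR302CHG shares 302 bases but had at most 20 counts in a library. The microRNA genes MIR367 and MIR302A to MIR302D, in LARP7 introns on the other strand, had at most 10 counts in a library.

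MEPCE (ENSG00000146834, chr7:100428790-100434126, plus strand) had 2885, 2879 and 3378 counts in the control and 2588, 2027 and 2623 after Sev. Sev replicate 1, at 68.7 CPM, lay within the control range of 68.2 to 72.7 CPM, Sev replicate 3 lay just under it at 66.2 CPM, and Sev replicate 2 was lowest at 54.0 CPM. The log2 fold change was -0.16 (SE 0.11, 95% interval -0.40 to 0.088, adjusted p = 0.264, edgeR). It was negative in 15 of 15 alternatives and had an adjusted p under 0.05 in 0 of them. With single libraries left out it ran from -0.22 to -0.053. ZCWPW1 shares 203 exonic bases with MEPCE on the other strand. It rose by 1.22 on the log2 scale (SE 0.21, adjusted p = 0.00300, edgeR), but with 60 to 164 counts in a library it is small beside MEPCE. PPP1R35, which starts within 5000 bases of MEPCE on the other strand, had a log2 fold change of -0.56 (SE 0.20, adjusted p = 0.0516, edgeR), and the antisense genes ENSG00000241357 and PPP1R35-AS1 there had at most 26 counts in a library.

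BRD2 rose and passed the test after adjustment. BRD2 (ENSG00000204256, chr6:32968660-32981505, plus strand) was counted 9773, 8627 and 10642 times in the control and 10299, 11669 and 10964 times after Sev. Scaled to CPM, the control libraries stood at 231, 218 and 219 and the Sev libraries at 273, 311 and 277. Every Sev library was above every control library. BRD2 had a log2 fold change of 0.37 (SE 0.080, 95% interval 0.18 to 0.55, adjusted p = 0.00804, edgeR). It was 0.22 with library size only, still with an adjusted p under 0.05. In 14 of 15 alternatives the call was the same. The exception was limma on log2(FPKM + 1) without a filter, at 0.21 with an adjusted p of 0.0545. ENSG00000223837, a short transcript annotated inside an intron of BRD2 on the same strand and sharing 243 bases with its exons, rose by 1.20 (SE 0.22, adjusted p = 0.00401, edgeR), from 34, 40 and 49 counts to 77, 71 and 102. On the other strand, HLA-DMA shares 55 exonic bases with BRD2 and had 29 to 75 counts in a library (log2 fold change -0.49, SE 0.27, adjusted p = 0.182, edgeR), and ENSG00000263756 had at most 2.

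BRD3, another gene of the BET family, fell by 0.84 on the log2 scale (SE 0.13, adjusted p = 0.00180, edgeR), from 39.9 CPM in the control. BRDT, the testis member, was almost absent and not tested. JMJD6, a protein hydroxylase that binds BET proteins, rose by 0.61 (SE 0.11, adjusted p = 0.00309, edgeR).

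**Figure D3:**
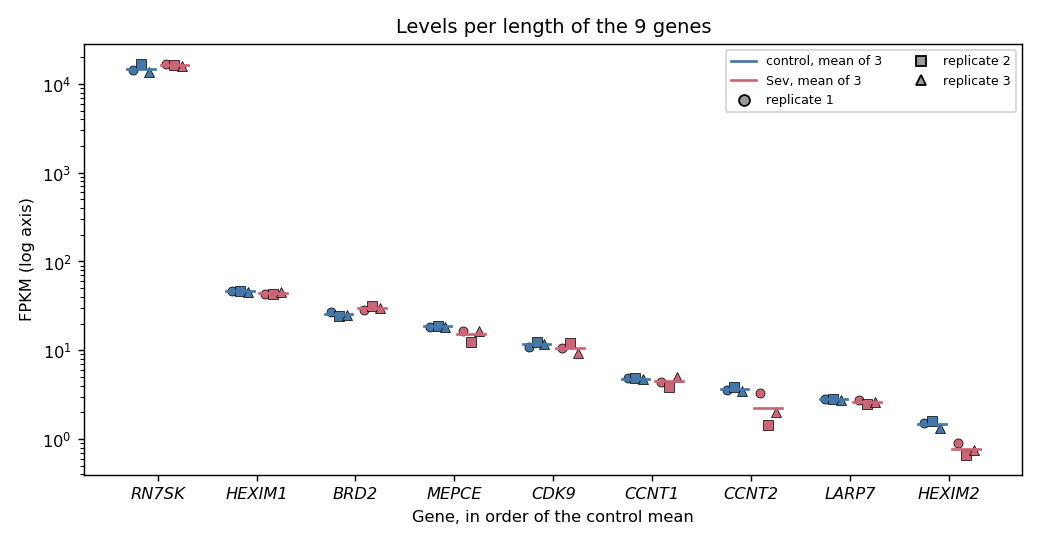
FPKM of the 9 genes in each library on a log axis, ordered by the control mean, with blue for control, red for Sev, shapes for the replicate number and bars for the mean of 3. The order of levels runs from RN7SK to HEXIM2, with CCNT2 above LARP7 in 1 Sev library and below it in the other 2.

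Levels were compared between genes per length, by the FPKM values. In the control they ran from RN7SK (14900 ± 1651 FPKM) over HEXIM1 (46.1 ± 1.02), BRD2 (25.6 ± 1.37), MEPCE (18.6 ± 0.282), CDK9 (11.7 ± 0.642), CCNT1 (4.79 ± 0.0586), CCNT2 (3.62 ± 0.171) and LARP7 (2.80 ± 0.0209) to HEXIM2 (1.48 ± 0.141; SD, n = 3 for each). No neighbours in this order overlapped between the control libraries. After Sev, CCNT2 (3.31, 1.42 and 2.00 FPKM) lay on both sides of LARP7 (2.73, 2.48 and 2.65 FPKM), and the other neighbours stayed apart.

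Ratios of RNA levels within a library do not depend on the scaling between libraries, and they do not measure protein. HEXIM1 over HEXIM2 was 30.2, 29.8 and 34.2 in the control and 48.6, 64.9 and 60.7 after Sev. All Sev libraries were higher. The mean went from 31.4 ± 2.45 to 58.1 ± 8.47, a log2 difference of 0.88 (two-sided exact permutation test, p = 0.1, adjusted p = 0.2 over 4 ratios). A p of 0.1 is the smallest that 3 libraries against 3 allow, so no ratio could pass 0.05.

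The RNA of HEXIM1 plus HEXIM2, mostly HEXIM1, over that of CDK9 was 4.34, 3.96 and 3.98 in the control and 4.15, 3.63 and 4.90 after Sev. These values overlapped, with a log2 difference of 0.037 (exact permutation test, p = 0.8, adjusted p = 0.8). CCNT1 over CCNT2 was 1.36, 1.26 and 1.35 in the control and 1.34, 2.72 and 2.52 after Sev. Here 2 Sev libraries were high and Sev replicate 1 was at the control level (log2 difference 0.66, exact permutation test, p = 0.3, adjusted p = 0.4). LARP7 over MEPCE was 0.152, 0.149 and 0.151 in the control and 0.166, 0.199 and 0.161 after Sev. The Sev libraries were all higher, at a log2 difference of 0.21 (exact permutation test, p = 0.1, adjusted p = 0.2).

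**Figure D4:**
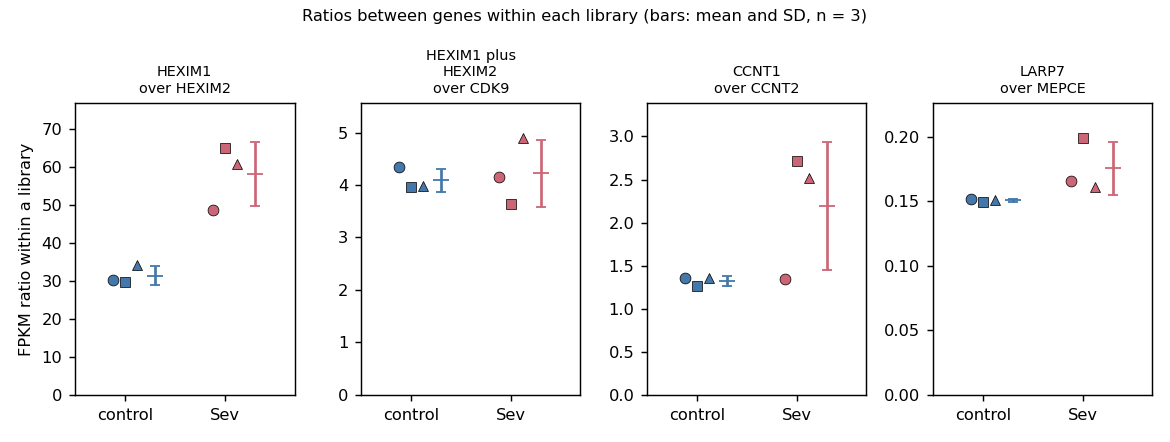
FPKM ratios between genes within each library, in control and Sev, with shapes for the replicate number and bars for the mean and SD of 3. HEXIM1 over HEXIM2 and LARP7 over MEPCE are higher in every Sev library than in every control library, while the other ratios overlap.

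The genes of proteins that P-TEFb works with were counted by list, beside the 22.1% of all tested features that were higher after Sev and the 21.5% that were lower. In the super elongation complex, which carries P-TEFb to genes, 4 of 11 tested genes rose (ELL2, ELL, AFF4 and EAF1) and 3 fell (MLLT3, AFF1 and AFF3), with a median log2 fold change of 0.072. The counts were 4 and 5 with library size only, at a median of -0.070. ELL2, an elongation factor, rose by 1.10 (SE 0.14, adjusted p = 0.000724, edgeR), from 93.5 CPM. The scaffold AFF4, the most abundant of the list at 500.0 CPM in the control, rose by 0.60 (SE 0.090, adjusted p = 0.00159, edgeR). EAF1, a partner of the ELL proteins, rose by 0.60 (SE 0.071, adjusted p = 0.000596, edgeR). MLLT3, which reads acetylated histones, fell by 1.15 (SE 0.13, adjusted p = 0.000479, edgeR). The scaffolds AFF1 and AFF3 fell by 0.61 and 0.52 (adjusted p = 0.00453 and 0.0155, edgeR).

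Among the pausing and elongation factors that P-TEFb phosphorylates or that follow the polymerase, 4 of 8 rose (SUPT5H, SUPT4H1, NELFE and NELFCD) and 1 fell (IWS1), with a median of 0.22. With library size only 1 rose and 1 fell, with a median of 0.078. SUPT5H and SUPT4H1, the subunits of DSIF, rose by 0.51 and 0.52 (SE 0.092 and 0.14, adjusted p = 0.00359 and 0.0217, edgeR). NELFE, the RNA-binding subunit of the pausing factor NELF, rose by 0.31 (SE 0.084, adjusted p = 0.0194, edgeR). IWS1, which works with SUPT6H, fell by 0.43 (SE 0.099, adjusted p = 0.0101, edgeR).

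In the PAF1 complex, which binds the elongating polymerase, 1 of 6 genes rose and 1 fell, at a median of -0.11. The gene that rose was RTF1, by 0.52 (SE 0.073, adjusted p = 0.00122, edgeR). LEO1 fell by 0.41 (SE 0.11, adjusted p = 0.0176, edgeR). In this complex 3 genes fell with library size only, and 0 fell with the replicate block.

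Of the proteins that bind 7SK outside the core particle or release P-TEFb from it, 7 of 10 rose and 0 fell, with a median of 0.42. Among all features 22.1% were higher and 21.5% lower, with a median of -0.0056. The list was chosen with earlier results of these data known, so this difference is not a test. With library size only 7 again rose and 0 fell, at a median of 0.28, and 5 rose in limma on log2(FPKM + 1) without the filter. DDX21, an RNA helicase that releases P-TEFb from 7SK, rose by 1.16 (SE 0.13, adjusted p = 0.000483, edgeR), from 154 CPM. TRIM28, which tethers the 7SK particle to promoters, rose by 0.49 (SE 0.079, adjusted p = 0.00213, edgeR). PPP1CA, a phosphatase subunit linked to the release of P-TEFb, rose by 0.43 (SE 0.085, adjusted p = 0.00532, edgeR). Of the 4 hnRNPs, which take the place of HEXIM on free 7SK, 2 rose. HNRNPR and SYNCRIP (hnRNP Q) rose by 0.42 and 0.48 (adjusted p = 0.00695 and 0.00641, edgeR). HNRNPA2B1 had a log2 fold change of 0.045 (adjusted p = 0.677, edgeR) and HNRNPA1 one of 0.17 (adjusted p = 0.121, edgeR). The hnRNPs were singled out after their values were seen.

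**Figure D5:**
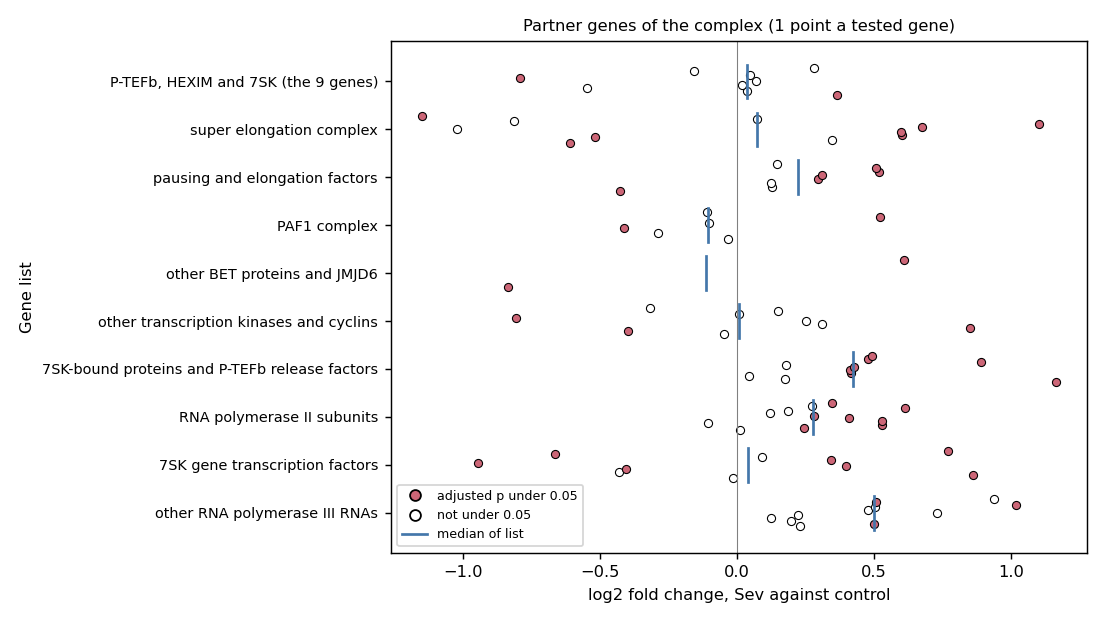
Log2 fold change, Sev against control, of the tested genes of the complex and of 9 lists of partner genes, 1 point a gene, with blue bars for the list medians. Filled points have an adjusted p under 0.05. The 9 genes of the complex lie around a median of 0.035, and the 7SK-bound and release factors lie at 0.42 with no member that fell. The lists were chosen with earlier results of these data known.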

How the data were processed

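The sequencing compared 3 control and 3 Sev libraries of U251 cells. The authors deposited raw counts per gene, without normalization, and FPKM values, which are scaled to gene length and library size in a way not given in the sources used here. The submitters' processing notes list bcl2fastq 2.19, featureCounts and the build hg18, with no role or order. The aligner, the annotation and the strand setting of the counting are not given in the sources used here. Symbols were joined to 60295 identifiers through a symbol table, and positions, overlaps and sequences come from GENCODE 29 on GRCh38 through the identifier. The positions are therefore those of the annotation and not of the deposited tables. A further 932 features are assembled loci without an Ensembl identifier.

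Counts were tested in R 4.3.3 with edgeR 4.0.16 (filterByExpr, TMM, glmQLFit, glmQLFTest, groups only), with Benjamini-Hochberg adjustment over all 27514 tested features and a limit of 0.05. The standard error is the absolute log2 fold change over the square root of the F statistic. CPM values use TMM. Ratios were tested by a two-sided exact permutation test on log2 values. Alternatives were DESeq2 1.42.0 and its size factors, library size only, other count filters, a replicate block, each library left out, and limma 3.58.1 on log2(FPKM + 1) or log2(FPKM + 0.1). The FPKM filter was 0.5 in 3 libraries. Copies of 7SK were aligned with Biopython 1.88. The test was run on simulated data with 200 changed genes, as many raised as lowered. In the deposited counts 12014 features were called, so that run does not bear on the choice of scaling.

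The members and lists were chosen with earlier results of these data known. Named from each list were up to 3 genes higher and 3 lower with the smallest p, among those with an adjusted p under 0.05 and no overlap between groups, and genes overlapping a member or starting within 5000 bases of it. ELL, NELFCD, the hnRNPs, POLR2A, BRDT, RN7SL1, RN7SL2, RN7SL3, RMRP and the marker genes were named outside this rule after their values were seen. A further gene was left out of the lists and is not reported here. Other list genes enter as counts and medians.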

Additional observations from a re-analysis of the deposited data

How the results depend on the processing

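HEXIM2 kept its direction and its call in 15 of 15 alternatives and BRD2 its direction in 15. The BRD2 call was lost with limma on log2(FPKM + 1) without a filter (0.21), where 1 of the 9 genes was called. Where values sat near 0, the scaling turned their sign, and none of these was called. With library size only the log2 fold changes were -0.073 for HEXIM1, -0.095 for LARP7, -0.13 for CDK9 and -0.10 for CCNT1. In limma on log2(FPKM + 1), with or without the filter, they were -0.074, -0.069, -0.12 and -0.092, and on log2(FPKM + 0.1) they were -0.075, -0.092, -0.13 and -0.11. Leaving out single libraries gave -0.091 to 0.12 for CDK9, -0.037 to 0.11 for CCNT1, -0.94 to -0.32 for CCNT2 (called without Sev replicate 1), 0.22 to 0.38 for RN7SK (called without control replicate 2) and -0.074 to 0.14 for HEXIM1 plus HEXIM2 over CDK9 (negative without Sev replicate 3). Where this left 3 libraries against 2, the spread was pooled over both groups. Features past the log2 fold change threshold were 6462, 3839 with at least 10 counts in every library, 1269 in limma on log2(FPKM + 1) and 1270 without its filter. The 31 genes named from the lists kept their direction in all alternatives, and 52 of 465 values lost the call. Libraries of the same number did not deviate together (correlations -0.049, -0.048 and 0.033), and 0 of 6 libraries correlated best with their own number. No pairing by replicate number was seen, but 3 libraries a group cannot settle how the samples were made. The replicate block gave 5228 higher and 5021 lower features, against 6094 and 5920, and an adjusted p of 0.0859 for RN7SK (0.29) in edgeR. HEXIM2 had the fewest counts of the 9 genes, 69 to 158 a library.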

Other observations

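Other genes around the complex were counted in the same way, beside the 22.1% of all tested features that were higher after Sev, the 21.5% that were lower and their median of -0.0056. These lists too were chosen with earlier results of these data known. Of the 12 subunits of RNA polymerase II, the enzyme that P-TEFb acts on, 7 rose and 0 fell, at a median log2 fold change of 0.28, and 3 rose with library size only (median 0.14), without an expression filter, with the replicate block and in each limma analysis of FPKM. POLR2J, POLR2C and POLR2E rose by 0.61, 0.53 and 0.53 (adjusted p = 0.000939, 0.00280 and 0.00376, edgeR). The largest subunit, POLR2A, whose tail is the target of CDK9, had a log2 fold change of 0.011 (SE 0.079, adjusted p = 0.920, edgeR), and was named after its value was seen. Of 9 other kinases and cyclins of transcription, 1 rose and 2 fell. CCNK, the cyclin of CDK12 and CDK13, rose by 0.85 (adjusted p = 0.000749, edgeR). The Mediator kinase CDK19 fell by 0.81 (adjusted p = 0.00159, edgeR), and CCNH, the cyclin of CDK7, fell by 0.40 (adjusted p = 0.00475, edgeR).

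Of 10 factors that transcribe the 7SK gene, 4 rose and 3 fell, at a median of 0.038. With library size only 2 rose and 3 fell, at a median of -0.10, and 2 rose as well without an expression filter, with the replicate block and in each limma analysis of FPKM. BRF2, the polymerase III factor of this kind of promoter, rose by 0.86 (adjusted p = 0.00428, edgeR), ZNF143 by 0.77 (adjusted p = 0.00458, edgeR) and SNAPC2 by 0.40 (adjusted p = 0.0284, edgeR). SNAPC3, TBP and SNAPC1 fell by 0.95, 0.66 and 0.41 (adjusted p = 0.000277, 0.0116 and 0.0200, edgeR).

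Of 19 other RNAs made by polymerase III, 18 were found in the deposited counts and 11 could be tested. Of these, 3 rose and 0 fell, at a median of 0.50. The 3 are 27.3% of those tested, near the 22.1% of all features that were higher, and with the replicate block 1 rose. RPPH1, the RNA of RNase P, rose by 0.51 (SE 0.14, adjusted p = 0.0234, edgeR). RNY3 rose by 1.02 (SE 0.31, adjusted p = 0.0285, edgeR) from a control level of 0.358 CPM. The other was RN7SL1, at 0.50 (SE 0.16, adjusted p = 0.0369, edgeR), with groups that overlapped. RN7SL2 and RN7SL3, of the same list, had log2 fold changes of 0.20 and 0.12 (SE 0.46 and 1.01, adjusted p = 0.758 and 0.932, edgeR). Sharing of reads between RN7SL1 and these genes was not tested. RMRP, at 6634 CPM in the control, had a log2 fold change of 0.23 (SE 0.14, adjusted p = 0.233, edgeR). Of the 11, 2 rose with library size only.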
